A study of Mus musculus with 12 samples.

Results

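The genes described here encode the machinery of lysosomal degradation and autophagy, and they were chosen by name: every gene whose symbol begins with Atp6v, Atg and a digit, Map1lc3 or Gabarap, every cathepsin gene written as Cts and 1 letter, and Lamp1, Lamp2, Tfeb, Tfe3, Ulk1, Ulk2, Sqstm1, Becn1, Wipi1 and Wipi2. This gave 71 of the 18193 genes on the array. They fall into 12 V1 and 8 V0 subunit genes of the vacuolar ATPase, 18 cathepsins, 2 LAMP genes, 2 transcription factors, 12 genes of autophagy initiation and nucleation, 11 genes of the conjugation machinery, 5 ATG8 proteins and 1 cargo receptor. RNA came from whole lymph node suspensions of 6 P14-TCR mice, a strain whose T cells carry a transgenic receptor for the viral peptide gp33-41, so all cells of the node contributed. Of these mice 3 were wild type and 3 were PKD2-null, that is, without protein kinase D2, a serine/threonine kinase activated by the antigen receptor. Cells of each mouse were kept in culture for 4 h either with gp33-41 at 62.5 ng/ml (stimulated) or without peptide (unstimulated), which gave 4 groups of 3 arrays. The age of the mice and the construction of the null allele are not given in the sources used here.

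Lysosomes are acidified by the V-ATPase, a rotary proton pump whose V1 sector hydrolyses ATP in the cytosol while its V0 sector carries protons across the membrane; cathepsins are the proteases that work in the acid lumen. In autophagy, the ULK kinase complex and a lipid kinase complex around Becn1 start a membrane cup, a conjugation machinery attaches ATG8 proteins (LC3 and GABARAP) to it, and the closed vesicle fuses with a lysosome. TFEB and TFE3 switch on many of these genes and are held in the cytosol by mTORC1, a growth kinase that is activated on the lysosomal surface and by antigen receptor signals in T cells.

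Values are deposited log2 signals of Affymetrix probe sets, and a difference of 1 is a 2-fold change. Array medians lay between 4.66 and 4.72. A gene is called low when its signal was under the array median on all 12 arrays; 14 of the 71 genes were low and 57 were not. Changes are given with the standard error (SE) of a limma fit over 4 group means, and a change was called at a Benjamini-Hochberg adjusted p under 0.05 over all 45037 probe sets. The number of arrays limits the precision. Prkd2, the targeted gene, was 18.0-fold lower in null cells without peptide (10.17 ± 0.172 against 6.00 ± 0.291, SD, n = 3) and 7.22-fold lower in stimulated ones. The arrays of null mouse 2 stood apart from those of the other null mice: the summed linear signal of 13 B cell markers was 32294 without and 20890 with peptide, against at most 19967 and 11833 in null mice 1 and 3. For the 71 genes, results that rest on this mouse are given with and without it. Calls of other genes and of cell markers are given only with it.

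In wild-type cells 26 of the 71 genes fell with peptide and 11 rose; over all genes 20.4% fell and 15.1% rose. In PKD2-null cells 28 fell and 2 rose, against 19.0% and 12.5% of all genes. Of the 14 low genes 0 fell in either genotype and 1 rose, in wild type. The rest of these calls were of the 57 genes that were not low. The shares over all genes, here and beside each class below, include genes of low signal. Shares over genes that were not low are not given here, and the part of signal level in any excess was not tested. The median change of the 71 genes was -0.13 in wild type and -0.16 in null cells, beside 0.01 and -0.02 over all genes. Of the 26 wild-type falls, 7 were of initiation and nucleation genes, 7 of cathepsins, 4 of ATG8 proteins, 4 of V-ATPase subunits, 3 of the conjugation machinery and 1 of Tfeb. Of the 71 genes, 25 fell in both genotypes, 2, Atp6v1h and Atg2b, rose in both, and 0 were called in opposite directions. Of all 18193 genes, 3104 fell in both, 2086 rose in both and 1 was called in opposite directions. The lack of opposite calls is therefore not particular to these genes. Among the called members, the unstimulated and stimulated values overlapped for Gabarapl1 in wild type and Ctsh in null cells; over all called genes, 97.3% to 99.2% did not overlap in each genotype and direction, so the lack of overlap is not particular to these genes. When each array was left out in turn, 23 of the 26 wild-type falls and 24 of the 28 null falls were called every time, and 2 of the 11 wild-type rises were. The same counts over all called genes are not given here, so these cannot be called particular to the 71 genes. Since these are bulk samples, fewer cells of a type and less RNA per cell cannot be told apart for any of these changes.

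**Figure D1:**
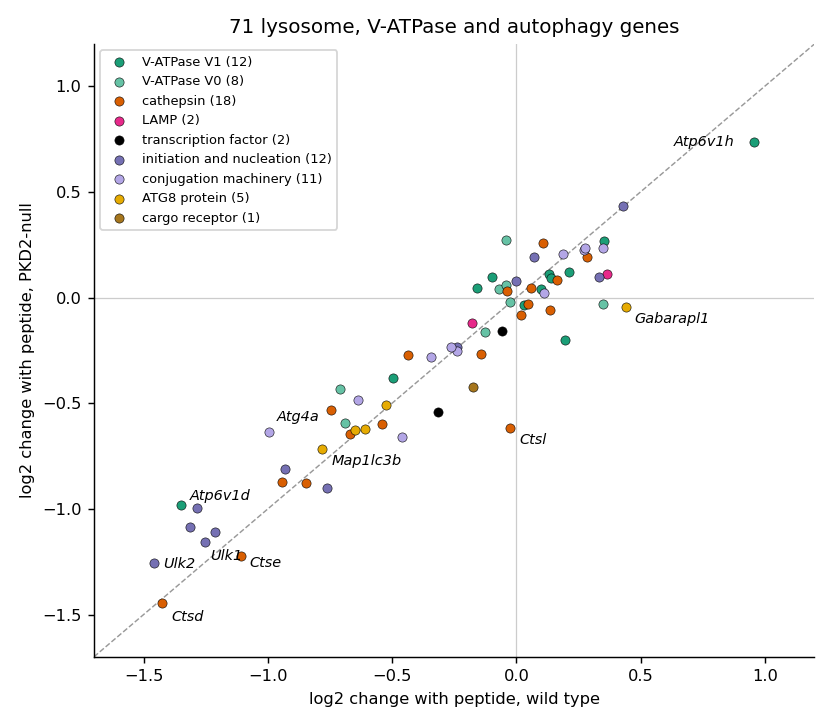
Log2 change with peptide (stimulated minus unstimulated group mean) of each of the 71 genes in wild type (horizontal) and PKD2-null cells (vertical), coloured by class with the number of genes in parentheses; the dashed line marks equal changes. Ctsd, Ulk2, Ctse and Atp6v1d lie at the lower left and Atp6v1h at the upper right, while Ctsl and Gabarapl1 lie farthest below the line.

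Of the transcription factors that control these genes, Tfeb fell modestly and Tfe3 was not called. Tfeb, the master activator of lysosomal genes, read 6.93, 6.86 and 6.76 in unstimulated and 6.46, 6.74 and 6.41 in stimulated wild-type mice 1 to 3. In null mice it read 7.00, 7.06 and 6.87 without and 6.39, 6.48 and 6.44 with peptide. All stimulated values lay below all unstimulated ones of the same genotype. Tfeb fell by 0.31 in wild type (SE 0.0988, adjusted p = 0.029) and by 0.54 in null cells (SE 0.0988, adjusted p = 0.0011). The wild-type call was lost without unstimulated replicate 1 or 2 or stimulated replicate 1 or 3 (adjusted p between 0.0764 and 0.12), with only the wild-type groups compared (0.0699), after quantile normalization (-0.21, 0.182) and with a trended and robust prior (0.0525). Tfe3, its paralog, read 8.48, 8.54 and 8.70 without and 8.54, 8.54 and 8.47 with peptide in wild-type mice. Its null values were 8.50, 8.71 and 8.44 without and 8.39, 8.44 and 8.36 with peptide. The groups of Tfe3 overlapped in wild type, and its changes of -0.06 and -0.16 were not called.

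TFEB and TFE3 bind the CLEAR element, whose core is the palindrome TCACGTGA, an extended form of the E-box CACGTG. RefSeq promoter windows (GRCm38.p6, 300 bases, from 250 before to 50 after a start site) were found for 57 of the 71 genes. Read on both strands, which are the same for a palindrome, TCACGTGA stood in those of 6 genes (10.5%), against 1.12% of all 27025 genes in the table. CACGTG, which every TCACGTGA contains, stood in 13 (22.8%) against 8.09%. The 27025 genes are not limited to the 18193 on the array, and these differences were not tested. The 4 stretches below, the core with 35 bases on either side, are cut from the windows of the genes with the core whose signal was called in wild-type stimulation; capitals mark the core, and each is read 5′ to 3′ on the strand of the gene.
Ctsd (chr7:142387884-142387961, minus strand): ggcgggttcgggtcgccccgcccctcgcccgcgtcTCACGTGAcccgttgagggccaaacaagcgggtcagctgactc
Ctsa (chr2:164833725-164833819, plus strand): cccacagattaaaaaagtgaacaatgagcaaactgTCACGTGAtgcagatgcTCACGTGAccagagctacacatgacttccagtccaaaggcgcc
Atp6v0d1 (chr8:105566026-105566103, minus strand): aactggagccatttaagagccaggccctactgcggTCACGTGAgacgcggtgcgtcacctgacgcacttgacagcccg
Atg3 (chr16:45158722-45158799, plus strand): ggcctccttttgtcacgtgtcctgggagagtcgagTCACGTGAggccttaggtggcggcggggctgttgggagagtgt
Ctsd, Ctsa (which holds 2 copies) and Atp6v0d1 fell in both genotypes, by 1.42, 0.94 and 0.69 in wild type, whereas Atg3 rose by 0.27 there. Atp6v1a and Atp6v0e, which also hold the core, changed by -0.16 and -0.03 and were not called. The Atg3 rise was lost in 3 of 12 fits with 1 array left out (adjusted p up to 0.0787), and its null change of 0.23 was not called (adjusted p = 0.052). A match of letters describes the sequence and shows no binding.

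Among the V-ATPase subunits, 4 of 20 genes rose and 4 fell in wild type, close to the 15.1% and 20.4% of all genes, and 1 rose and 4 fell in null cells, beside 12.5% and 19.0%. Atp6v1h, the regulatory H subunit of V1, had the largest rise of the 71 genes. It read 9.09, 9.11 and 9.12 without and 10.13, 9.97 and 10.08 with peptide among wild-type arrays, and 9.49, 9.31 and 9.30 without and 10.20, 9.98 and 10.13 with peptide in null cells. Its stimulated values lay well above its unstimulated ones in each mouse, with rises of 0.96 in wild type (1.94-fold, SE 0.0876, adjusted p = 2.8e-06) and 0.74 in null cells (SE 0.0876, adjusted p = 3.9e-05). A weaker probe set of the gene with signal near the array median changed by -0.09 in wild type and 0.49 in null cells, without a call, and the mean over all probe sets rose by 0.35 and 0.49 (adjusted p = 0.0215 and 0.00349).

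Atp6v1d, a subunit of the central rotor stalk, moved the other way. It read 11.51, 11.42 and 11.59 without and 10.03, 10.18 and 10.25 with peptide in the wild type. The null values were 11.27, 11.09 and 11.48 without and 10.39, 10.22 and 10.27 with peptide. It fell by 1.35 in wild type (2.55-fold, SE 0.107, adjusted p = 8.5e-07) and by 0.98 in null cells (1.98-fold, SE 0.107, adjusted p = 1.9e-05). Atp6v1g1, part of the peripheral stalk, fell from 10.87, 10.76 and 10.72 to 10.17, 10.36 and 10.34 in wild type and from 10.83, 10.64 and 10.66 to 10.48, 10.26 and 10.25 in null cells. These falls of 0.50 and 0.38 had adjusted p of 0.0012 and 0.0091; the mean over its probe sets fell by 0.27 in wild type (0.0247). Atp6v1c1, the C subunit that links V1 to V0, read 9.97, 9.81 and 9.72 without and 10.29, 10.07 and 10.19 with peptide in wild-type mice. PKD2-null mice read 10.13, 9.88 and 10.03 without and 10.29, 10.26 and 10.28 with peptide, above the unstimulated ones in both genotypes. The rise of 0.35 was called in wild type (SE 0.0950, adjusted p = 0.012), though not without unstimulated replicate 3 (0.0533) or stimulated replicate 1 (0.0556). In null cells the change was 0.27 (adjusted p = 0.061, or 0.0457, and called, with the mouse as a block). Another probe set of Atp6v1c1 rose by 0.43 in wild type and 0.32 in null cells, both called (adjusted p = 0.0016 and 0.015). A further probe set rose by 0.42 in wild type (adjusted p = 0.0060) and changed by 0.29 in null cells without a call (0.053).

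The catalytic and nucleotide-binding core of V1 was not called. Atp6v1a, which encodes the catalytic A subunit, changed by -0.16 and 0.05, Atp6v1b2, the B subunit, by 0.10 and 0.04, and Atp6v1e1, a stalk subunit, by 0.03 and -0.04 in wild type and null cells. Atp6v1f, another stalk subunit, rose by 0.21 in wild type (adjusted p = 0.042), a call that held in only 3 of the 12 fits with 1 array left out (adjusted p up to 0.124 in the others) and was lost without null mouse 2 (0.0615) and with the mouse as a block (0.0643).

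In the membrane sector, Atp6v0d1, the subunit that joins the rotor to the proton ring, read 10.01, 10.05 and 10.03 without and 9.34, 9.34 and 9.34 with peptide among wild-type arrays. The PKD2-null mice gave 10.12, 10.09 and 10.14 without and 9.45, 9.60 and 9.50 with peptide. The mice were nearly alike in each group, and the gene fell by 0.69 (SE 0.0705, adjusted p = 7.0e-06) and 0.59 (SE 0.0705, adjusted p = 3.8e-05). Atp6v0a2, an isoform of the large a subunit, fell from 8.13, 8.26 and 8.14 to 7.44, 7.53 and 7.42 in wild type. The null values fell from 8.29, 8.14 and 8.20 to 7.85, 7.69 and 7.79. The falls were 0.71 (adjusted p = 1.8e-05) and 0.43 (adjusted p = 0.0014); averaged over all its probe sets, the wild-type fall was 0.47 and the null change was -0.15 and not called (adjusted p = 0.121). Atp6v0b, a subunit of the proton ring, read 7.93, 8.01 and 8.07 without and 8.35, 8.44 and 8.26 with peptide in the wild type. The null values, 8.44, 8.36 and 8.16 without and 8.24, 8.41 and 8.21 with peptide, overlapped. The wild-type rise of 0.35 (SE 0.0954, adjusted p = 0.014) was lost without unstimulated replicate 1 (0.0586) or stimulated replicate 2 (0.0589), and the null change was -0.03. Atp6v0e and Atp6v0a1 were not called, and Atp6v0a4, Atp6v0d2, Atp6v0e2, Atp6v1b1, Atp6v1c2, Atp6v1e2 and Atp6v1g2, isoforms known mainly from specialised tissues, were low.

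**Figure D2:**
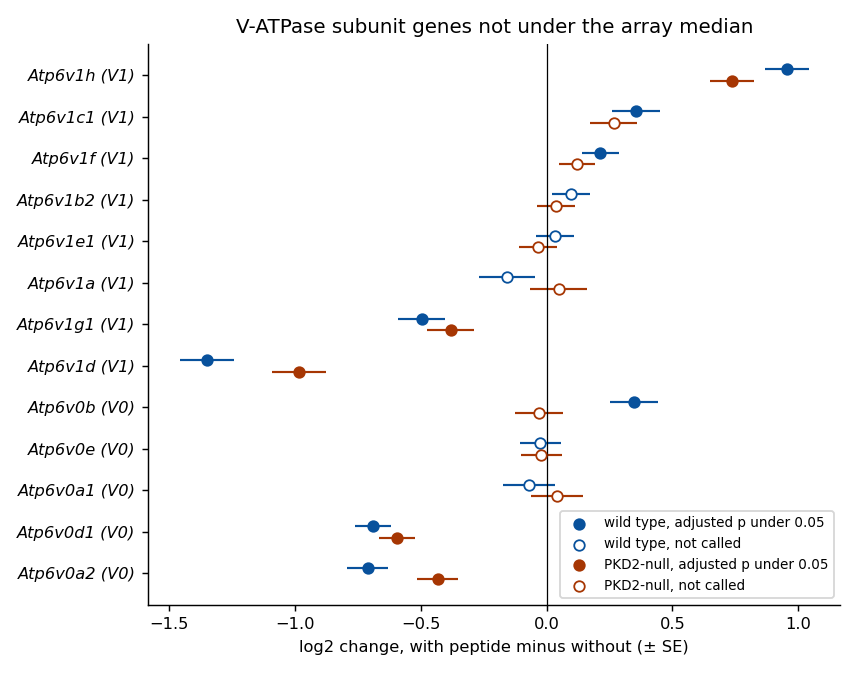
Log2 change with peptide and its SE for the 13 V-ATPase subunit genes that were not low, in wild type (blue) and PKD2-null cells (red); filled points were called at an adjusted p under 0.05. Atp6v1h stands at the right, Atp6v1d at the left, and the others lie between them on both sides of 0.

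The LAMP genes encode the heavily glycosylated proteins that line the lysosomal membrane. Lamp1 read 10.72, 10.68 and 10.77 without and 10.52, 10.58 and 10.54 with peptide in wild-type mice. The null mice had 10.73, 10.90 and 10.83 without and 10.63, 10.72 and 10.75 with peptide. The changes of -0.18 and -0.12 were not called (adjusted p = 0.11 and 0.32). Lamp2 read 9.56, 9.40 and 9.45 without and 9.88, 9.72 and 9.92 with peptide among wild-type arrays, against 9.29, 9.57 and 9.61 without and 9.57, 9.70 and 9.53 with peptide in null cells, where the groups overlapped. Lamp2 rose by 0.37 in wild type (SE 0.102, adjusted p = 0.016), while the null change was 0.11 (adjusted p = 0.53). The wild-type call was lost without unstimulated replicate 2 or stimulated replicate 1 or 3 (adjusted p up to 0.0631), after quantile normalization (0.0634) and with the mean of all probe sets (0.0744). Of its other probe sets, 1 rose by 0.42 (adjusted p = 0.011) and 1 changed by -0.15 without a call.

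Among the cathepsins, 7 of 18 fell in wild type and 8 in null cells, beside 20.4% and 19.0% of all genes. Ctsq, which was low, changed by 0.28 in wild type (adjusted p = 0.063; 0.0420, and called, with the mouse as a block). Ctsd, the main aspartic protease of lysosomes, read 9.69, 9.79 and 9.81 without and 8.26, 8.42 and 8.34 with peptide in the wild type. Among null mice, it read 9.95, 9.64 and 9.97 without and 8.39, 8.46 and 8.37 with peptide. The stimulated values lay more than 1 log2 unit below the unstimulated ones in each mouse, and Ctsd fell 2.68-fold in wild type (log2 change -1.42, SE 0.0969, adjusted p = 2.4e-07) and 2.72-fold in null cells (-1.45, SE 0.0969, adjusted p = 3.9e-07). Ctse, an aspartic protease of endosomes, read 8.61, 8.36 and 8.77 without and 7.26, 7.40 and 7.74 with peptide in wild-type mice. The corresponding null values were 9.07, 8.64 and 9.26 without and 7.78, 7.62 and 7.90 with peptide. These falls of 1.11 (SE 0.169, adjusted p = 0.00020) and 1.23 (SE 0.169, adjusted p = 0.00012) exceeded the spread of the mice, although a further probe set of Ctse went the other way in wild type without a call and the mean over its probe sets fell by 0.40 and 0.75 (adjusted p = 0.0367 and 0.000885).

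Ctsa, a carboxypeptidase that also protects other lysosomal enzymes, fell from 9.30, 9.46 and 9.20 to 8.37, 8.39 and 8.37 in wild type. The null signal fell from 9.67, 9.63 and 9.56 to 8.71, 8.91 and 8.61. The falls were 0.94 (adjusted p = 5.9e-06) and 0.87 (adjusted p = 1.8e-05), and 0.52 and 0.50 with the mean of all probe sets, also called. Ctsb, a cysteine protease, fell from 9.17, 9.14 and 9.25 to 8.19, 8.45 and 8.39 in wild type, and from 9.15, 9.53 and 9.22 to 8.21, 8.82 and 8.24 in null cells. Null mouse 2 was the highest of its group in both conditions. The falls of Ctsb were 0.85 and 0.88 (SE 0.155, adjusted p = 0.00088 and 0.00086), and without null mouse 2 the null fall was 0.96 (adjusted p = 8.3e-05). The mean over all probe sets of Ctsb fell by 0.50 and 0.58, also called. Ctso, a cysteine protease, fell by 0.75 and 0.53. Ctss, which trims the invariant chain of MHC class II in antigen-presenting cells, fell by 0.54 and 0.60. Ctsh, an aminopeptidase, fell by 0.67 and 0.65; its wild-type call was lost in 4 fits (without wild-type unstimulated replicate 1 or 2 or stimulated replicate 1 or 3, adjusted p up to 0.0631) and its null call in 3 (without null unstimulated replicate 2 or stimulated replicate 1 or 3, up to 0.121). Without both arrays of null mouse 2 the null fall of Ctsh was 0.65 (adjusted p = 0.0019).

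Ctsl, a cysteine endopeptidase, was the exception among the strongly detected cathepsins in that its fall was called only in null cells. It read 9.40, 8.94 and 9.32 without and 8.85, 9.68 and 9.05 with peptide among wild-type arrays, where the groups overlapped. Null mice 1 to 3 read 8.84, 8.95 and 8.91 without and 8.18, 8.54 and 8.13 with peptide, where they did not. The change was -0.03 in wild type (SE 0.193, adjusted p = 0.95) and -0.62 in null cells (SE 0.193, adjusted p = 0.033). The null call was lost without any 1 of the unstimulated null arrays or without stimulated null replicate 1 or 3 (adjusted p between 0.0668 and 0.122) and with the mean of all probe sets (-0.29, adjusted p = 0.122), and the difference between the changes, -0.59, was not called (SE 0.273, adjusted p = 0.71). Ctsw, a cathepsin of cytotoxic lymphocytes, changed by -0.43 and -0.27, Ctsc, which activates granzymes, by 0.16 and 0.08, and Ctsz, a carboxypeptidase, by 0.13 and -0.06, none of them called; without null mouse 2 the wild-type fall of Ctsw was called (adjusted p = 0.021), as it was with the mouse as a block (0.00431). Ctsk, the protease of osteoclasts, and Ctsf were not called, and Ctsg, a neutrophil protease, was low, as were Ctsj, Ctsm, Ctsq and Ctsr, which are known from the rodent placenta.

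**Figure D3:**
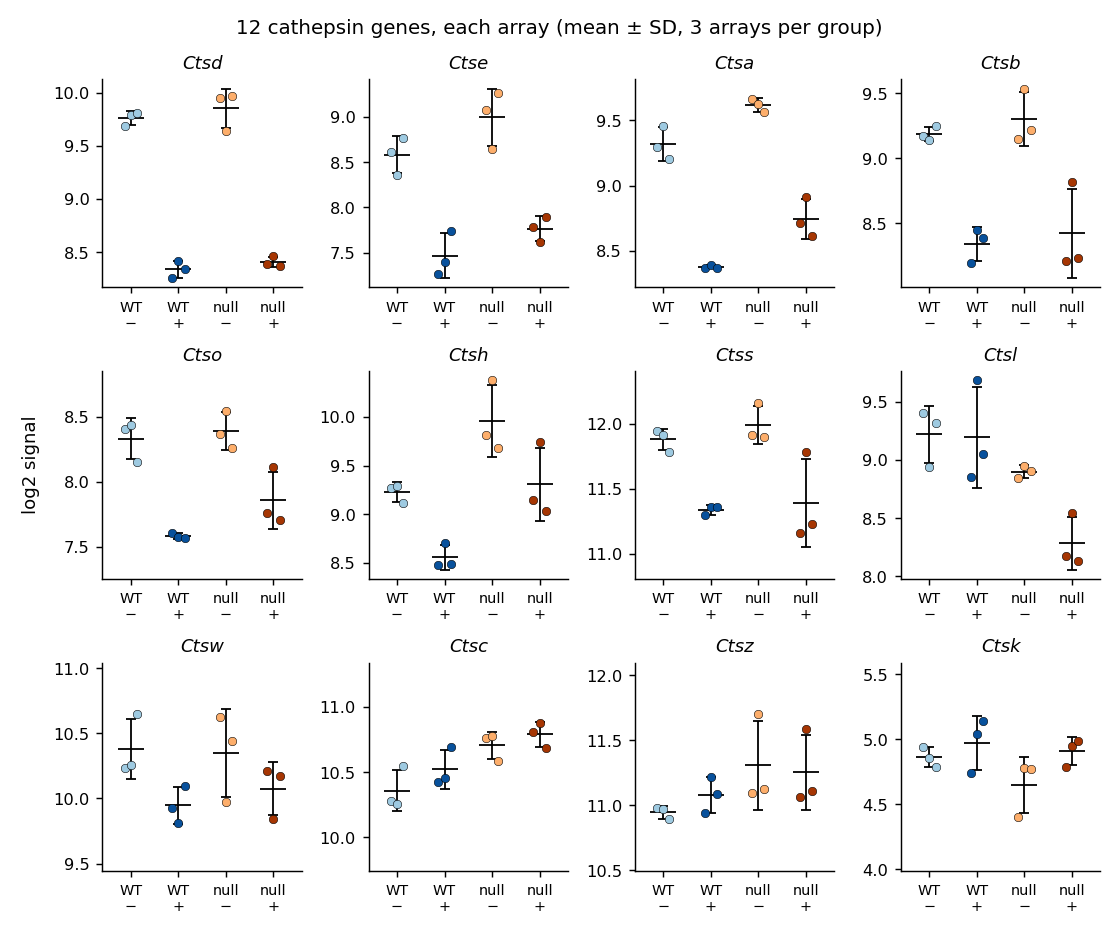
Log2 signal of 12 of the 18 cathepsin genes on each array, with the mean and SD of the 3 arrays of a group; WT is wild type, null is PKD2-null, and minus and plus are without and with peptide (vertical axes differ between panels). Ctsd, Ctse, Ctsa and Ctsb are lower with peptide in both genotypes, Ctsl is lowest in null cells with peptide, and null mouse 2 is the highest null value of Ctsh, Ctss and Ctsz.

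In autophagy initiation and nucleation 7 of 12 genes fell in both genotypes, beside 20.4% and 19.0% of all genes, with a class median of -0.85 in wild type and -0.86 in null cells. Ulk1 and Ulk2 encode the kinases that start autophagy. Ulk1 read 9.11, 8.98 and 8.96 without and 7.82, 7.58 and 7.89 with peptide in the wild type, and 8.96, 8.76 and 9.00 without and 7.78, 7.71 and 7.76 with peptide in null cells. It fell 2.38-fold in wild type (-1.25, SE 0.0992, adjusted p = 8.4e-07) and 2.23-fold in null cells (-1.16, SE 0.0992, adjusted p = 2.7e-06), and a weaker probe set fell by 0.72 and 0.69, also called. Ulk2 read 8.57, 8.70 and 8.64 without and 7.11, 7.06 and 7.37 with peptide in wild-type mice. The null values were 8.87, 8.46 and 8.56 without and 7.43, 7.44 and 7.24 with peptide. Its fall of 1.46 was the largest of the 71 genes in wild type (2.75-fold, SE 0.119, adjusted p = 1.0e-06), and it fell by 1.26 in null cells (SE 0.119, adjusted p = 5.9e-06). All 3 mice of each genotype lost more than 1 log2 unit of Ulk1 and of Ulk2.

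Of the partners of these kinases, Atg13 fell by 0.76 in wild type and 0.90 in null cells, whereas the changes of Atg101, -0.24 and -0.23, were not called (adjusted p = 0.075 and 0.090). Atg14, which directs the class III lipid kinase to the site of autophagosome formation, read 6.87, 7.08 and 7.11 without and 5.64, 5.54 and 6.02 with peptide among wild-type arrays. For the null genotype the values were 7.19, 6.98 and 7.37 without and 6.19, 6.35 and 6.00 with peptide. The falls were 1.29 (SE 0.143, adjusted p = 1.5e-05) and 1.00 (SE 0.143, adjusted p = 0.00018). Becn1, the scaffold of the same lipid kinase complex, changed by 0.00 and 0.08 and was not called. Atg2a, which transfers lipid into the growing membrane, read 8.75, 8.83 and 8.70 without and 7.57, 7.21 and 7.55 with peptide in the wild type. Its null values were 8.76, 8.51 and 8.64 without and 7.59, 7.64 and 7.42 with peptide. Atg2a fell by 1.32 (SE 0.111, adjusted p = 1.5e-06) and 1.09 (SE 0.111, adjusted p = 1.1e-05). Its paralog Atg2b rose by 0.43 in both genotypes (SE 0.111, adjusted p = 0.0098 and 0.011), although the null rise was not called without null mouse 2 (0.36, adjusted p = 0.085). By these probe sets the 2 lipid transfer genes moved in opposite directions in each genotype. A weaker probe set of Atg2b changed by only 0.15 in wild type and 0.08 in null cells, without a call (adjusted p = 0.54 and 0.80).

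Atg9a, the lipid scramblase of the vesicles that seed the membrane, fell by 1.21 and 1.11. Wipi2, which reads the lipid made by the lipid kinase and recruits Atg16l1, fell by 0.93 and 0.81. Wipi1 changed by 0.07 and 0.19 without a call. Atg9b was low and rose by 0.33 in wild type (adjusted p = 0.038), a call lost in 6 of 12 fits with 1 array left out (adjusted p up to 0.152), among them each of the 3 stimulated wild-type arrays, and with the mouse as a block (0.0505).

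**Figure D4:**
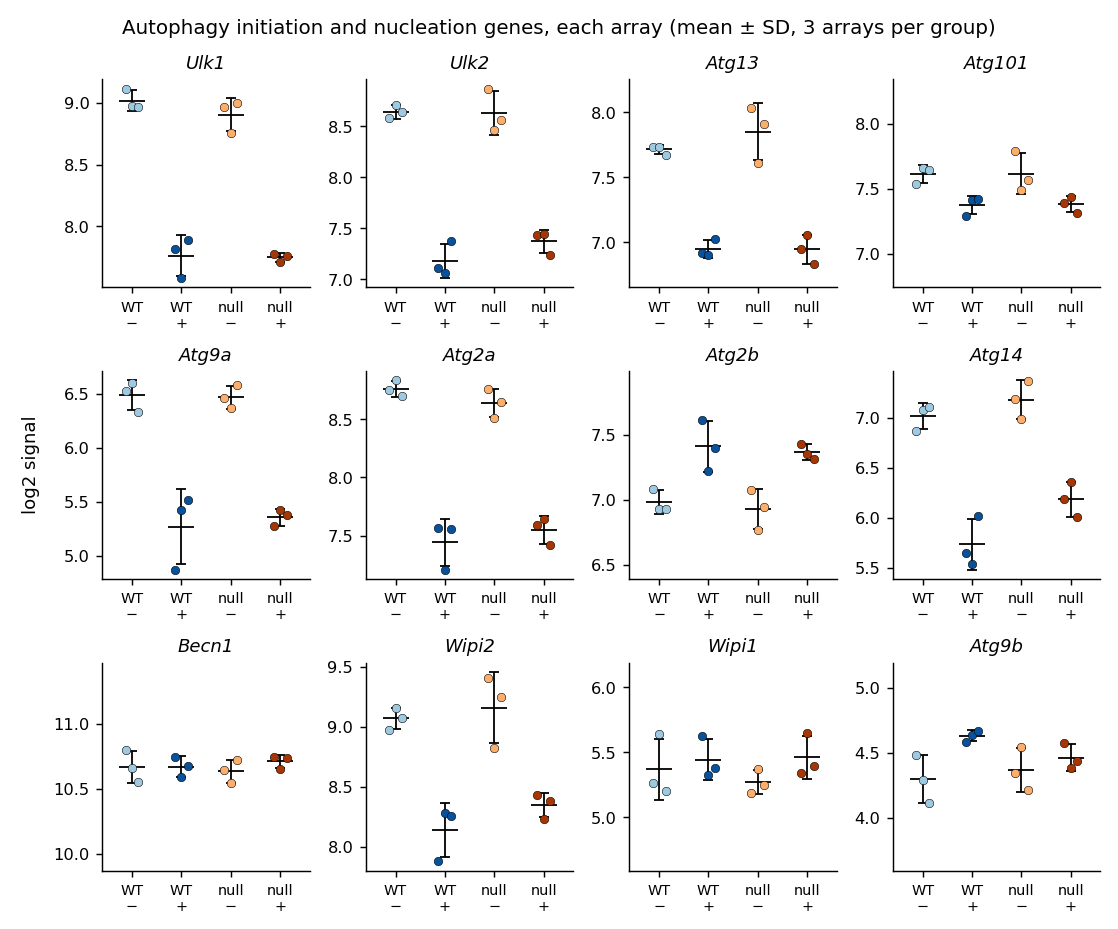
Log2 signal of the 12 initiation and nucleation genes on each array, with the mean and SD of the 3 arrays of a group; WT is wild type, null is PKD2-null, and minus and plus are without and with peptide (vertical axes differ between panels). Ulk1, Ulk2, Atg9a, Atg2a and Atg14 lie about 1 log2 unit or more lower with peptide in both genotypes, Atg2b lies higher, and Becn1 lies at the same height in the 4 groups.

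In the conjugation machinery 3 of 11 genes fell and 3 rose in wild type, and the 3 calls in null cells were falls. In a class of 11 genes these counts do not stand out from the shares of all genes. Of all genes, 20.4% fell and 15.1% rose in wild type, and 19.0% fell and 12.5% rose in null cells. Atg4a, a protease that trims ATG8 proteins and releases them from lipid, read 8.62, 8.71 and 8.60 without and 7.58, 7.62 and 7.74 with peptide in wild-type mice. PKD2-null mice read 8.57, 8.62 and 8.66 without and 7.96, 8.10 and 7.88 with peptide, all of them above the stimulated wild-type values. Atg4a fell by 1.00 in wild type (1.99-fold, SE 0.0835, adjusted p = 1.4e-06) and by 0.64 in null cells (SE 0.0835, adjusted p = 8.4e-05); the mean over its probe sets fell by 0.53 and 0.32, also called. Among the 71 genes it had the smallest unadjusted p for the difference between these changes (0.36, SE 0.118), which was not called (adjusted p = 0.57). Atg12, the ubiquitin-like protein that is joined to ATG5, read 8.77, 8.82 and 9.01 without and 8.22, 8.17 and 8.31 with peptide among wild-type arrays. The null arrays read 8.80, 8.62 and 8.76 without and 8.28, 8.26 and 8.17 with peptide, and the falls were 0.64 (adjusted p = 0.00011) and 0.49 (adjusted p = 0.0012). Another probe set of Atg12 went the other way in wild type without a call, and the mean over its probe sets fell by 0.22 and 0.21 (adjusted p = 0.0342 and 0.045).

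Atg5, which forms the ligase with ATG12, read 8.10, 8.21 and 8.08 without and 8.36, 8.56 and 8.52 with peptide in the wild type. The null mice had 8.26, 8.02 and 8.03 without and 8.53, 8.11 and 8.36 with peptide, and these overlapped. The rise was 0.35 in wild type (SE 0.113, adjusted p = 0.035) beside a null change of 0.23 (adjusted p = 0.18). The wild-type rise was not called without unstimulated replicate 1 or 3 or stimulated replicate 2 or 3 (adjusted p between 0.0947 and 0.112). Another probe set of Atg5 rose by 0.33 in wild type and 0.36 in null cells, both called (adjusted p = 0.019 and 0.014). A further probe set rose by 0.55 in wild type (adjusted p = 0.0036) and changed by 0.27 in null cells without a call (0.15). Atg16l1, the third component of that ligase, and Atg3, the E2-like enzyme that attaches ATG8 proteins to lipid, each rose by 0.27 in wild type (adjusted p = 0.030 and 0.020). The Atg16l1 call was lost without unstimulated replicate 1 or 3 or stimulated replicate 1 or 3 (up to 0.123), and the Atg3 call without unstimulated replicate 1 or 2 or stimulated replicate 2 (up to 0.0787). Atg4d, a further ATG8 protease, read 8.32, 8.43 and 8.54 without and 8.24, 7.96 and 8.06 with peptide in wild-type mice. The PKD2-null mice gave 8.36, 8.51 and 8.37 without and 8.09, 8.25 and 8.05 with peptide. The wild-type fall of 0.34 (SE 0.0991, adjusted p = 0.019) was lost without unstimulated or stimulated replicate 2 or 3 (between 0.0503 and 0.0820) and with the mean of all probe sets (-0.10, adjusted p = 0.494), and the null change was -0.28 (adjusted p = 0.057). Atg10, the E2-like enzyme for ATG12, fell by 0.66 in null cells (adjusted p = 0.013; 0.0628 without stimulated replicate 1), with a wild-type change of -0.46 (adjusted p = 0.069; 0.0335, and called, with the mouse as a block). Atg7, the shared E1-like enzyme, Atg4b and Atg16l2 were not called, and Atg4c was low.

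Of the 5 ATG8 proteins, 4 fell by similar amounts in both genotypes. Of all genes, 20.4% fell in wild type and 19.0% in null cells, and 3104 of 18193 fell in both. Map1lc3b, the LC3 form most used as a marker of autophagosomes, read 12.31, 12.34 and 12.26 without and 11.36, 11.69 and 11.52 with peptide among wild-type arrays. The corresponding null values were 12.31, 12.20 and 12.33 without and 11.57, 11.56 and 11.56 with peptide. It fell 1.72-fold in wild type (-0.78, SE 0.0883, adjusted p = 1.7e-05) and 1.64-fold in null cells (-0.72, SE 0.0883, adjusted p = 5.1e-05). Map1lc3a fell from 9.68, 9.72 and 9.78 to 8.90, 9.19 and 9.14 in wild type. Null mice showed a fall from 9.48, 9.52 and 9.51 to 8.93, 8.83 and 8.88. The falls of Map1lc3a were 0.65 and 0.63 (adjusted p = 6.1e-05 and 0.00011), without overlap of the groups; without x_at and s_at probe sets, which can bind other transcripts, its wild-type fall was 0.38 (0.044).

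Gabarap, of the second ATG8 subfamily, fell from 11.23, 11.28 and 11.24 to 10.63, 10.87 and 10.68 in wild type. The null values fell from 11.31, 11.47 and 11.39 to 10.87, 10.96 and 10.81. These falls were 0.53 and 0.51 (adjusted p = 0.00040 and 0.00068). Gabarapl2 fell from 10.43, 10.48 and 10.49 to 9.79, 9.89 and 9.90 in wild type and from 10.52, 10.45 and 10.42 to 9.84, 9.90 and 9.79 in null cells. Its falls of 0.61 and 0.62 had adjusted p of 3.0e-05 and 3.7e-05, though another probe set of the gene went the other way in null cells without a call and the mean over its probe sets fell by 0.34 and 0.30 (adjusted p = 0.0119 and 0.0278).

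Gabarapl1 was the exception. It read 7.74, 7.66 and 8.00 without and 7.98, 8.24 and 8.51 with peptide in the wild type, higher with peptide in each mouse, although the ranges of the groups met. Among null mice, it read 7.59, 7.78 and 7.48 without and 7.40, 7.73 and 7.58 with peptide. It rose by 0.44 in wild type (SE 0.145, adjusted p = 0.037), and the null change was -0.04 (adjusted p = 0.89). The wild-type call was lost without unstimulated replicate 1 or 2 or stimulated replicate 2 or 3 (adjusted p between 0.0799 and 0.16) and with only the wild-type groups compared (0.0609). A weaker probe set of Gabarapl1 rose by 0.60 in wild type (adjusted p = 0.0063) and changed by -0.29 in null cells. The difference between the changes was -0.48 for the first (SE 0.204, adjusted p = 0.67) and -0.89 for the weaker probe set (SE 0.204, adjusted p = 0.42), and neither was called.

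Sqstm1 encodes p62, the receptor that brings ubiquitinated cargo to ATG8 proteins and is itself degraded by autophagy. It read 10.71, 10.65 and 10.94 without and 10.53, 10.63 and 10.62 with peptide in wild-type mice, and 10.84, 10.78 and 10.46 without and 10.28, 10.36 and 10.18 with peptide in null cells. The stimulated values were the lower ones in both genotypes. The fall was called in null cells (0.42, SE 0.113, adjusted p = 0.014), and the wild-type change was -0.17 (adjusted p = 0.32). The null call was lost without null unstimulated replicate 1 or 2 or stimulated replicate 3 (adjusted p between 0.0517 and 0.0654) and without both arrays of null mouse 2 (0.0546); the difference between the changes was not called (-0.25, adjusted p = 0.80).

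**Figure D5:**
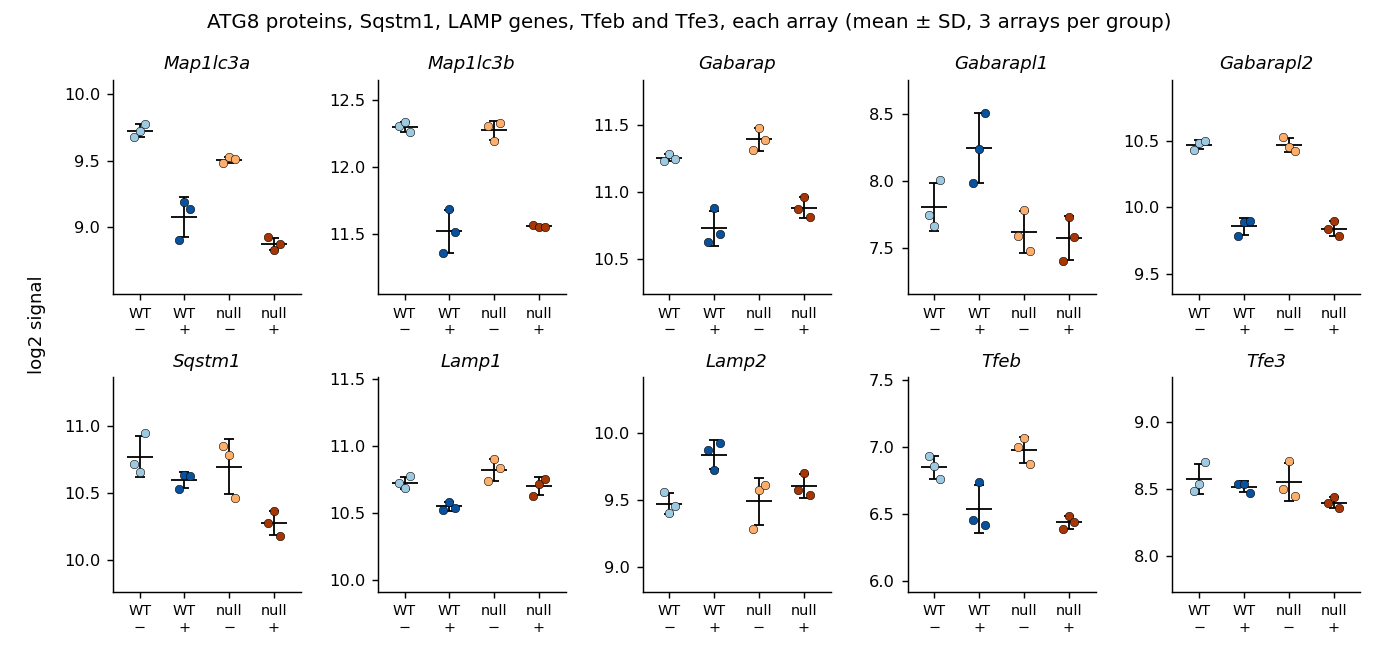
Log2 signal of the 5 ATG8 genes, Sqstm1, Lamp1, Lamp2, Tfeb and Tfe3 on each array, with the mean and SD of the 3 arrays of a group; WT is wild type, null is PKD2-null, and minus and plus are without and with peptide (vertical axes differ between panels). Map1lc3a, Map1lc3b, Gabarap and Gabarapl2 are lower with peptide in both genotypes, and Gabarapl1 is highest in stimulated wild-type cells.

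Comparing the genotypes directly, 0 of the 71 genes were called between null and wild-type cells without peptide, beside 0.0440% of all genes. At an unadjusted limma p under 0.05 there were 9 (12.7%, against 10.6% of all genes), and the other settings tried also called 0. With peptide, 0 were higher and 2 lower in null cells, beside 1.09% and 0.544% of all genes; the unadjusted limma p was under 0.05 for 16 (22.5%, beside 17.6% of all genes). Ctsl was 0.91 lower in stimulated null cells (1.88-fold, SE 0.193, 95% interval -1.33 to -0.49, adjusted p = 0.046), with all 3 null values below all 3 wild-type values. Gabarapl1 was 0.67 lower there (1.59-fold, SE 0.145, interval -0.98 to -0.36, adjusted p = 0.048), also without overlap, and its weaker probe set was 0.85 lower (adjusted p = 0.020). Both calls lie close to the threshold. The Ctsl call was lost in 10 of the 12 fits with 1 array left out, remaining only without wild-type stimulated replicate 1 or null stimulated replicate 2 (adjusted p up to 0.182 in the others), and also with the mouse as a block (0.0562), with only the 2 groups compared (0.147) and with the mean of all probe sets (-0.56, 0.0509). The Gabarapl1 call was lost in 8 of 12, remaining without wild-type unstimulated replicate 3 or stimulated replicate 1 or null unstimulated or stimulated replicate 2 (up to 0.205), and with only the 2 groups compared (0.129). Without both arrays of null mouse 2 the differences were -1.04 for Ctsl (adjusted p = 0.033) and -0.75 for Gabarapl1 (0.034).

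Ctsh read 9.27, 9.29 and 9.11 in unstimulated wild-type and 9.81, 10.38 and 9.68 in unstimulated null cells, and 8.48, 8.70 and 8.49 against 9.15, 9.74 and 9.04 with peptide. The null values were above the wild-type values in both conditions, by 0.73 (SE 0.194, adjusted p = 0.25) and 0.75 (adjusted p = 0.094), and neither was called. Without null mouse 2, the highest of its group, the difference with peptide was 0.54 and was called (SE 0.108, adjusted p = 0.031). Ctsa was also higher in null cells, by 0.30 and 0.37 (adjusted p = 0.36 and 0.091), and its null values lay above the wild-type values in both conditions; its other probe set, near the array median, went the other way (-0.21 and -0.23, not called). Most B cell and plasma cell markers were also higher in null cells. With peptide, Fcer2a and Tnfrsf17 were slightly lower there (both -0.10, not called), and Pax5 (0.04) and Derl3 (0.01) were about equal. Of the 13 B cell markers, 0 were called without peptide, though 10 had an unadjusted limma p under 0.05. With peptide, Ighm (1.45), Fcrla (1.25) and Cd79b (1.19) were called higher in null cells. The summed linear signal of the 13 ranged from 12837 to 14057 in unstimulated wild-type and 19367 to 32294 in unstimulated null arrays. It ranged from 6796 to 7725 in stimulated wild-type and 11729 to 20890 in stimulated null arrays. None of the 13 was low. The 5 plasma cell markers, none of them low, had median differences of 0.94 without and 0.83 with peptide; Sdc1 was called with peptide (1.26, adjusted p = 0.011), and 0 were called without it, with 2 at an unadjusted limma p under 0.05. Their summed signal ranged from 1492 to 2459 in unstimulated wild-type, 2687 to 6126 in unstimulated null, 939 to 1705 in stimulated wild-type and 1565 to 3836 in stimulated null arrays. The highest null value in both conditions was that of mouse 2. Null mice 1 and 3 read 3145 and 2687 without and 1915 and 1565 with peptide. The part of these markers in the cathepsin values was not tested.

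The difference of the stimulation effects, which asks whether the response to peptide differs between the genotypes, was called for 0 of the 71 genes (0.00550% of all genes), with 6 at an unadjusted limma p under 0.05 (8.45% against 7.71%). The other settings tried also called 0. These 6 were Atg4a (0.36), Atp6v0b (-0.38), Atp6v1c2 (-0.40, low), Atp6v0a2 (0.28), Atp6v1d (0.37) and Gabarapl1 (-0.48), each given as null minus wild type. Over the 57 genes that were not low the 95% interval of this difference reached 0.315 on either side at the median (0.217 to 0.598). At the adjusted threshold, differences larger than this were not called either, such as that of Ctsl (-0.59). For Ulk1 the interval ran from -0.21 to 0.40, for Ulk2 from -0.16 to 0.57 and for Ctsd from -0.32 to 0.28.

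Other genes of the same compartment were counted for context. Of 50 further lysosomal genes, 30 fell and 4 rose in wild type and 28 fell and 3 rose in null cells, with a median of -0.47 in both. Beside these stand 20.4% and 19.0% of all genes that fell and 15.1% and 12.5% that rose. The largest falls in wild type were Lipa, the acid lipase (-1.78), Ids, a sulfatase (-1.74), Npc1, the cholesterol exporter (-1.62), and Manba, a mannosidase (-1.52). In null cells they were Lipa (-1.76), the cholesterol carrier Npc2 (-1.36), the sphingomyelinase Smpd1 (-1.32) and Manba (-1.19). M6pr, a sorting receptor for lysosomal enzymes, rose by 1.36 and 1.00 and Gusb by 0.54 and 0.33; Mcoln2 (0.55) and Ifi30 (0.44) rose in wild type and Gnptg (0.44) in null cells. Between genotypes, Ifi30, a thiol reductase of antigen processing, was 1.08 higher in null cells without peptide (limma adjusted p = 0.011). With peptide, Npc1 (0.97), Lgmn (0.95), Laptm5 (0.50) and Idua (0.45) were higher in null cells (limma adjusted p between 0.021 and 0.046). Over all genes 0.0440% were called without peptide, and 1.09% were higher in null cells with it. The summed B cell marker signal was also higher in null arrays, and its part in these differences was not tested.

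Of 22 further autophagy genes, 16 fell and 2 rose in wild type and 14 fell and 2 rose in null cells, with medians of -0.70 and -0.58. Over all genes 20.4% fell and 15.1% rose in wild type, and 19.0% fell and 12.5% rose in null cells. Rb1cc1, which encodes the FIP200 scaffold of the ULK complex, fell by 1.73 and 1.17, Tecpr1, a tether of autophagosomes and lysosomes, by 2.07 and 1.83, and Wdr45, a relative of Wipi2, by 1.31 and 1.32. The cargo receptor Nbr1 fell by 1.25 in wild type and Tax1bp1 by 1.14 in null cells. Vmp1, a lipid scramblase of the endoplasmic reticulum, rose by 1.23 and 1.24, and Wdr45b by 0.39 and 0.33. Among 23 genes that control mTORC1 at the lysosome, 4 rose and 7 fell in wild type and 3 rose and 7 fell in null cells; the rises were near the share of all genes (15.1% and 12.5%), and the falls stand beside 20.4% and 19.0%. Rheb, the GTPase that activates mTORC1, rose by 1.03 and 0.87, Fnip2 by 1.70 and 0.97 and Rraga by 0.50 and 0.34, and Rragd rose by 0.76 in wild type. Sesn1, an inhibitor of the pathway, fell by 2.07 and 1.63, Lamtor2 by 1.18 and 1.17 and Sesn3 by 0.81 and 0.73. Ddit4, another inhibitor, fell by 0.87 in wild type and was 0.80 higher in null than in wild-type cells with peptide, and Slc38a9 fell by 0.70 in null cells.

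Markers of the cells in the node also moved with peptide, and their part in the falls of lysosomal genes was not tested. The marker counts below stand beside 20.4% of all genes that fell and 15.1% that rose in wild type, and 19.0% and 12.5% in null cells. Of the 13 B cell markers 8 fell and 1 rose in wild type and 5 fell in null cells. Of 5 CD8 T cell markers 3 fell in wild type and 1 in null cells, and their summed signal went from between 17718 and 18941 to between 10179 and 11298 in wild type and from between 14215 and 20398 to between 11052 and 16405 in null cells. The lowest null value in both conditions was that of mouse 2. Null mice 1 and 3 read 19690 and 20398 without and 16252 and 16405 with peptide. Of 12 markers of macrophages and dendritic cells, which are rich in lysosomes, 1 (Zbtb46) rose in wild type and 0 were called in null cells, with 4 there at an unadjusted limma p under 0.05; Itgam and Xcr1 were low. The summed signal of these 12 in wild-type mice 1 to 3 was 2136, 1486 and 1962 without and 1588, 1560 and 1664 with peptide. In null mice 1 to 3 it was 2252, 3187 and 2041 without and 1548, 2384 and 1502 with peptide. It was thus lower with peptide in each null mouse, and mouse 2 was the highest null mouse in both conditions. The median change of the 12 was -0.07 in wild type and -0.37 in null cells. Of the 5 plasma cell markers Sdc1 and Mzb1 fell in both genotypes. Of 4 NK cell markers Nkg7, which activated T cells also express, rose by 1.56 and 1.47, and Ncr1 was low. Among 6 markers of stroma and vessels, Pecam1 fell by 1.48 and 1.52 and Pdpn rose by 0.34 in null cells, while Col1a1, Col3a1 and Cdh5 were low. Of 5 neutrophil markers limma called 0 in either genotype, with 0 at an unadjusted p under 0.05, and Mpo and Elane were low.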

How the data were processed

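The log2 values of the 12 arrays were used as deposited by the authors; the submitters' processing notes name Affymetrix Expression Console 1.1, and how it normalized the arrays is not stated in the sources used here. Of 45101 probe sets, 64 controls were left out; 34945 of the other 45037 had 1 gene symbol, giving 18193 genes, each read from the probe set whose mean over the 12 arrays was highest. Of the 71 genes, 27 had 1 probe set, and 8 were represented by a probe set ending in x_at or s_at, which can bind several transcripts. The 4 group means entered a limma fit (version 3.58.1, R 4.3.3; 8 residual and 4.18 prior degrees of freedom), two-sided, with Benjamini-Hochberg adjustment over 45037 probe sets; the script was tested on simulated data.

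The labels give animal numbers, which pair the 2 arrays of a mouse: after subtracting group means, arrays correlated at 0.116 to 0.577 within a mouse and at -0.399 to 0.129 between mice of a genotype. The fit had no block; the block is an alternative. Replicates were mice, numbered as in the labels. The 71 genes, the lists and the tests were chosen with earlier results of these data known. Values on every array are given for up to 4 called genes of each class with the largest wild-type change, for genes called between genotypes, and for Tfeb, Tfe3, Sqstm1, the LAMP and the ATG8 genes; the values of Ctsh on every array are given outside this rule, chosen after they were seen. Of the other pathway genes, up to 4 called each way per stimulation comparison and all called between genotypes are named. Alternatives were the block, only the groups compared, quantile normalization, centring on the array median, a filter on low values, the mean of all probe sets of a gene, no x_at or s_at probe sets, a trended and robust prior and each array left out. Leaving out both arrays of null mouse 2 was added after seeing the data. Promoter windows came from RefSeq.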

Additional observations from a re-analysis of the deposited data

How the results depend on the processing

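Over the alternatives, the wild-type and null falls stayed within 1.5 times their counts, and no named call changed direction. The wild-type rises went from 11 to 7 with only the groups compared, and the null rises from 2 to 5 with the filter on low values (56 of the 71 genes and 23832 probe sets passed) and to 4 with the trended and robust prior. With peptide, the genes lower in null cells went from 2 to 1 with the replicate block, 0 with only the groups compared and 1 with the mean of all probe sets; 1 gene was higher with that mean and 1 without both arrays of null mouse 2. The causes of these shifts were not tested. Leaving out 1 array at a time gave 5 to 12 rises and 23 to 27 falls in wild type, 2 to 4 rises and 25 to 29 falls in null cells, 0 to 1 higher and 0 to 2 lower with peptide, and 0 to 0 for the genotypes without peptide and for the difference of the effects. With the replicate block, which pairs the arrays of a mouse, wild-type stimulation gained Atg10 (adjusted p = 0.0335), Ctsq (0.0420) and Ctsw (0.00431) and lost Atg9b (0.0505) and Atp6v1f (0.0643), null stimulation gained Atp6v1c1 (0.0457), and Ctsl was lost between genotypes with peptide (0.0562); it changed no other call of the 71 genes. The scaling alternatives moved the median change over all probe sets by at most 0.0174.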
